A study of Mus musculus with 20 samples.

Results

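Voltage-gated sodium channels are described here through 8 genes of the mouse cerebellum, namely the α subunit genes Scn1a, Scn2a, Scn8a and Scn11a, the β subunit genes Scn2b, Scn3b and Scn4b, and the channel modulator Fgf14. They were chosen by name and mapped from symbol to the gene identifiers of the count table, which holds 55401 genes, 21897 of them protein-coding. RNA-seq was performed on 20 libraries, each made from the cerebellum of 1 mouse on the C57BL/6J background. WT mice labelled 9w had received AAV-shA4 (n = 3) or were untreated (n = 3). At 25w, SCA7 140Q/5Q knock-in mice had received AAV-shA4 (n = 5) or AAV-shSCR (n = 5), and untreated WT mice (n = 4) served as the reference. SCA7 knock-in mice carry an expanded CAG repeat in 1 allele of the endogenous Atxn7 gene. AAV-shA4 expresses an shRNA directed at CAG repeats and AAV-shSCR a scrambled shRNA, both together with eGFP from an AAV PHP.eB vector given into the bloodstream. Untreated mice had received saline according to the methods. No untreated SCA7 mice and no late WT mice given a vector were among the libraries, so that genotype and vector cannot be told apart in the comparisons of SCA7 with WT mice. The labels do not say from when the weeks are counted. The paper gives the times of the early AAV-shA4-treated WT mice and of the late SCA7 mice in weeks after injection. Its late time differs from the label of 25w, so the labels were not read as ages.

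Sodium channels open on depolarization and carry the inward current that starts and propagates the action potential. Each channel has 1 large α subunit that forms the pore, to which β subunits bind and change its gating and its place in the membrane. Channels are packed at the axon initial segment and at the nodes of Ranvier by ankyrin G, encoded by Ank3. Cerebellar Purkinje cells (PCs) fire spontaneously at high rates, and their channels pass a resurgent current on repolarization that favours repeated firing. The Scn8a channel carries a large part of this current, and the β4 subunit encoded by Scn4b has a cytoplasmic tail that can block the open pore and release it again. Fgf14 encodes an intracellular FGF homologous factor that binds the tail of the α subunit, and its mutation causes a dominant ataxia.

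Reads counted on genes numbered 31465586 to 54570503 per library. Sums of 8 PC markers (6733 to 10940 CPM, the reads of a gene scaled to a common library size) and of 8 granule cell markers (4723 to 6398 CPM) were high in all 20 libraries, as the tissue label says. Atxn7, the gene whose repeat was targeted, was at 48.5 ± 1.96 CPM in WT mice (SD, n = 4), 49.5 ± 2.92 in AAV-shSCR-treated and 48.2 ± 2.70 in AAV-shA4-treated SCA7 mice (n = 5 each). Its mRNA therefore did not separate the late groups, and counts per gene cannot tell the expanded from the normal allele. Replicate 1 of untreated WT mice at 25w and replicate 1 of AAV-shA4-treated SCA7 mice stood apart in a list of 8 markers of cerebellar nuclei and brainstem neurons, with summed levels of 123.1 and 107.5 CPM against 46.2 to 66.3 CPM in the other libraries. Results that rest on them are given with and without them.

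The members lie on 4 chromosomes of the mouse genome (build GRCm38, gene models of GENCODE M21). Scn2a (chr2:65620771-65767447, plus strand) and Scn1a (chr2:66270778-66440840, minus strand) belong to a cluster of α subunit genes, and Scn8a lies at chr15:100869858-101045938 (plus strand). Chromosome 9 holds Scn2b (chr9:45117782-45130070) and, 8324 bases further on the same strand, Scn4b (chr9:45138395-45154152), as well as Scn3b (chr9:40269217-40291618, plus strand) and Scn11a (chr9:119753759-119825456, minus strand). Fgf14 spans chr14:123977907-124677127 on the minus strand. The antisense gene Gm28932 overlaps exons of Fgf14, and had 3 to 14 reads per library against 2521 to 3721 for Fgf14. Since the sources used here do not say whether counting used strand, the overlap may affect the counts of such pairs.

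RefSeq (GRCm38.p6) promoter windows of 300 bases, from 250 before to 50 after a transcription start, were found for 7 of the 8 members, not for Scn3b, and Scn2a and Scn8a have a pair each. The neighbours Scn2b and Scn4b differ in these windows. The Scn2b window had a GC content of 38.3% and 2 CpG dinucleotides, and that of Scn4b 66.3% and 26, against medians of 52.7% and 7 over 32851 mouse promoter windows. In both strands 4 motifs were searched, namely GGGCGG (GC box, in 35.7% of all windows), CCAAT (in 37.4%), TATAAA (in 13.6%) and AGGTCA (a half-site of nuclear receptors such as RORA, in 16.3%). The Scn4b window held 1 CCAAT motif and none of the others, the Scn1a window 1 CCAAT and 1 AGGTCA motif, and those of Scn2b and Scn11a none. The AGGTCA motif of Scn1a lies after its start and outside the stretch shown. Shown are the stretches that lie before the start in both RefSeq and GENCODE, written 5′ to 3′ on the gene's strand with the motif in capitals, for Scn2b (chr9:45117626-45117781) as a member whose level was lower in both SCA7 groups, for Scn11a (chr9:119825457-119825706) as the member with the largest fold changes, and for Scn1a (chr2:66440841-66441087) as a member that differed between the WT groups. The Scn4b window lies for the most part inside the first exon of the GENCODE gene and is not shown.
Scn2b: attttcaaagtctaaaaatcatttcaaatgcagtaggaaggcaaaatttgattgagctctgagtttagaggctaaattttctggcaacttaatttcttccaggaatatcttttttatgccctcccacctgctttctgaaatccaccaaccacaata
Scn11a: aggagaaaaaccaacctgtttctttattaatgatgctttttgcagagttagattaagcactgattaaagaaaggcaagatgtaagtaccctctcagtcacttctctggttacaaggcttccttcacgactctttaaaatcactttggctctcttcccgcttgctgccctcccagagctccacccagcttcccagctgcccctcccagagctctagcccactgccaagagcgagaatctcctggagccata
Scn1a: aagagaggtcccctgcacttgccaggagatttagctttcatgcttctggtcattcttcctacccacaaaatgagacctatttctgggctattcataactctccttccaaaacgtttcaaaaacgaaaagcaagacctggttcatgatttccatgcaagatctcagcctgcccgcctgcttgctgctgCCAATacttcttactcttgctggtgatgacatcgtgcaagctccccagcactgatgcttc

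Because AAV-shA4 is directed at CAG repeats, the longest run of CAG was read from the GENCODE transcripts of each member. It was 3 in Scn11a and 2 in each of the other 7 genes. Of all protein-coding genes, 14.9% had a run of at least 3 and 80.9% a run of at least 2.

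Levels can be compared between genes only per length, and the order depended on which length was taken. With the median length of a gene's transcripts, untreated WT mice at 25w had levels per kb of 418.3 ± 4.70 CPM for Scn8a (SD, n = 4), 229.6 ± 16.8 for Scn2a, 113.8 ± 4.52 for Scn2b and 53.5 ± 3.53 for Scn1a. The median transcript model of Scn8a measures only 0.988 kb and that of Scn2a 1.81 kb, against longest transcripts of 11.4 and 8.94 kb. With the longest transcript, Scn2b led with 105.3 ± 4.17 CPM per kb, followed by Scn2a with 46.5 ± 3.41, Scn8a with 36.1 ± 0.404, Scn1a with 30.3 ± 2.00, Scn4b with 27.9 ± 2.78 and Fgf14 with 19.4 ± 0.410. Scn1a and Scn4b overlapped between mice on this scale, while the other neighbours among these 6 genes did not. Scn3b (1.24 ± 0.595 CPM per kb) and Scn11a (0.0267 ± 0.0121) came last with either length. In all other groups both also stood last, with means of at most 4.01 and 0.122 CPM per kb of median transcript length.

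**Figure D1:**
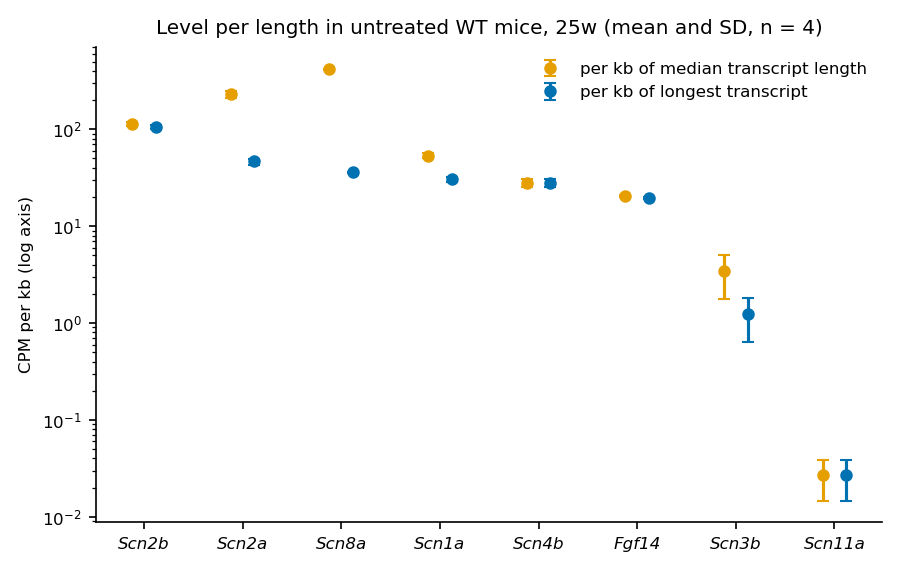
Mean level per kb of transcript (CPM per kb, log axis, error bars SD, n = 4) of the 8 genes in untreated WT mice at 25w, with the median transcript length of a gene (orange) and its longest transcript (blue). Scn8a drops from 418.3 to 36.1 CPM per kb with the choice of length, while Scn4b stays at 27.9 because it has 1 transcript model.

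The late groups were compared to ask how the disease allele and the treatment relate to each gene. Genes were tested with edgeR's quasi-likelihood test over all 14862 genes with enough reads, and called where the Benjamini-Hochberg adjusted p was below 0.05 and the change exceeded 1.3-fold up or down. Scn4b fell in both SCA7 groups and Scn11a rose in AAV-shSCR-treated SCA7 mice. Scn2b was slightly lower in both, and the main neuronal α subunits Scn1a, Scn2a and Scn8a did not pass the test. Of the 8 members, 4 passed the adjusted p in AAV-shSCR-treated SCA7 mice against WT mice (Scn2b and Scn4b lower, Scn11a and Fgf14 higher), where 15.5% of all genes did, and 2 were called (Scn4b and Scn11a), where 4.02% were. The members' median log2 fold change was -0.05, against 0.00 over all genes. In AAV-shA4-treated SCA7 mice against the same WT mice, 2 members passed the adjusted p (Scn2b and Scn4b lower), where 13.6% of all genes did, and 1 was called (Scn4b), where 3.45% were. Groups did not overlap for 3 members in each of these comparisons (Scn2b, Scn4b and Scn11a), with 16.8% and 13.4% of all genes. Both comparisons share the 4 WT libraries. Scn11a passed the filter on low reads only through the SCA7 libraries, so its entry into these counts is not independent of its difference.

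**Figure D2:**
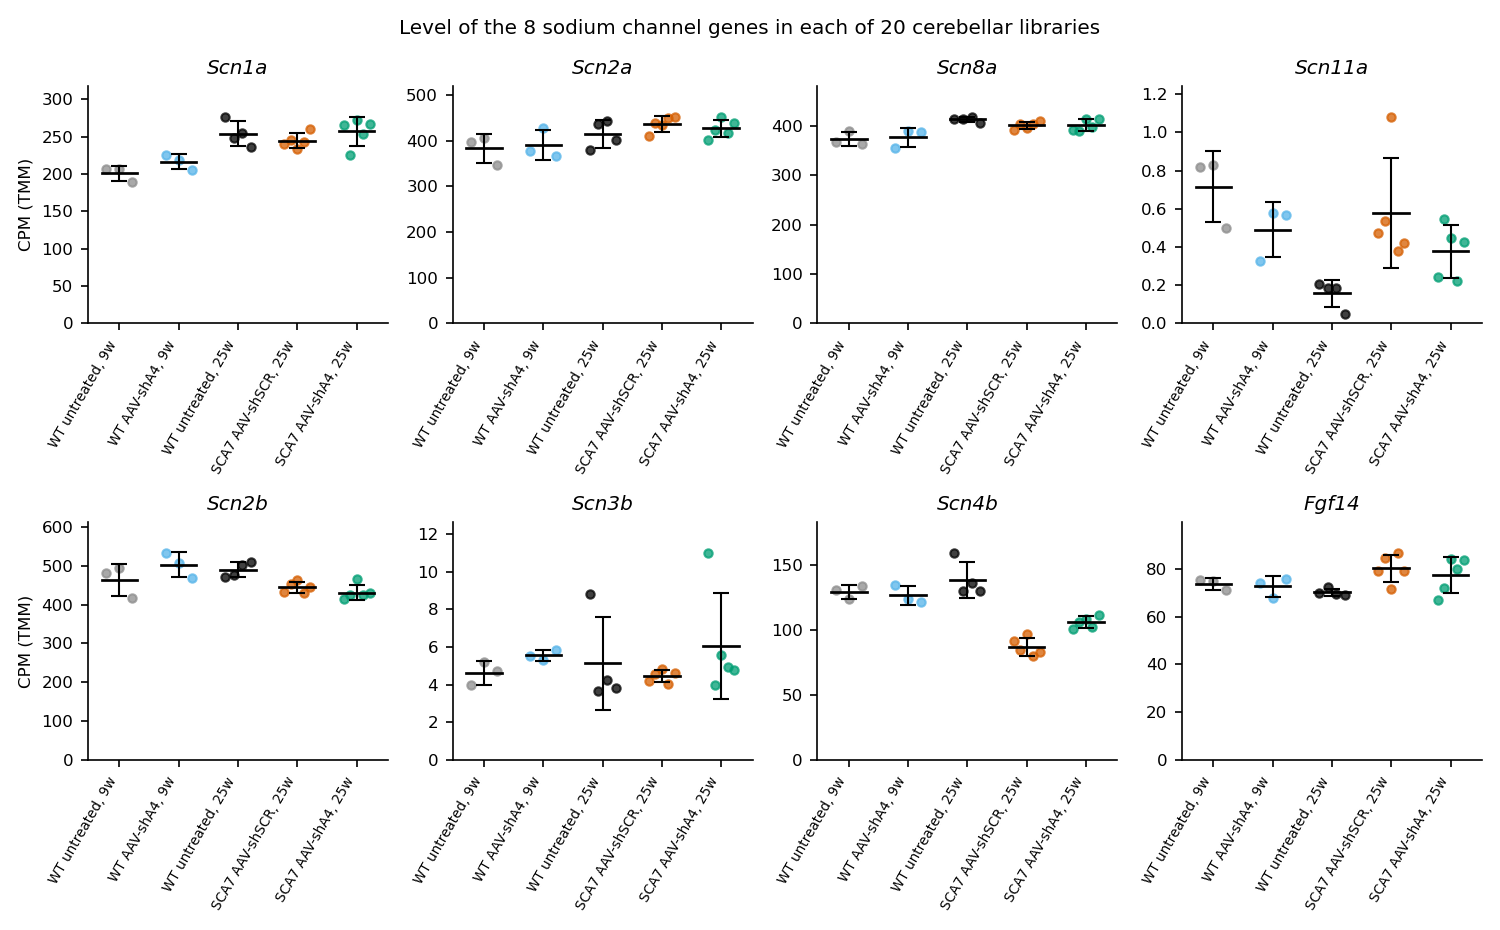
Level of each gene (CPM with TMM scaling, axes from 0) in each of the 20 libraries by group, with points for single mice and black bars for the mean and SD. For Scn4b the 5 AAV-shSCR-treated SCA7 mice lie between 79.8 and 96.7 CPM, the 5 AAV-shA4-treated ones between 101.1 and 111.9 CPM, and the 4 untreated WT mice of 25w between 129.9 and 159.2 CPM.

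Scn4b was at 159.2, 130.0, 136.5 and 129.9 CPM in the 4 untreated WT mice. SCA7 mice given AAV-shSCR had 91.6, 84.9, 96.7, 79.8 and 82.9 CPM. AAV-shA4-treated SCA7 mice had 101.1, 106.2, 109.0, 102.8 and 111.9 CPM. The 3 groups did not overlap, with AAV-shA4-treated SCA7 mice between the others. Scn4b had fallen by 37.2% with AAV-shSCR (log2 fold change -0.67, SE 0.062, edgeR adjusted p = 1.06e-06) and by 23.6% with AAV-shA4 (-0.39, SE 0.062, edgeR adjusted p = 0.000369), both against WT mice. The second value lay just past the limit of 1.3-fold. It was still past the adjusted p but within 1.3-fold without WT replicate 1 (-0.32), without AAV-shA4 replicate 1 (-0.37) or without AAV-shA4 replicate 4 (-0.377, with the limit at 0.3785), and at -0.30 without both libraries that stood apart. With AAV-shSCR the call was kept in each of 14 fits that left out 1 library, with log2 fold changes of -0.71 to -0.60.

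Between the SCA7 groups Scn4b was 1.22-fold higher with AAV-shA4 (log2 fold change 0.28, SE 0.059, 95% interval 0.16 to 0.41). The unadjusted p was 0.000191 in edgeR, which ranked the gene 7 of 14862, but the adjusted p was 0.325. Permuting the 5 against 5 mice in an exact two-sided test gave p = 0.00794, the smallest this design allows. No gene passed the adjusted p in this comparison by edgeR (0%), and none was called (0%), while 1222 genes (8.22%) had an unadjusted p under 0.05. By DESeq2, 23 genes passed and 4 were called. Scn4b was 1 of the 23 (DESeq2 adjusted p = 0.0107), with a fold below 1.3. Without both libraries that stood apart, a setting chosen after seeing the data, its edgeR adjusted p was 0.0499, at the limit. Over the fits that left out 1 library, the edgeR adjusted p ran from 0.0735 to 0.927. Among the members Scn4b alone had non-overlapping SCA7 groups, as 1.49% of all genes did.

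Against WT mice, PC markers moved in the same direction as Scn4b. All 8 of them, among them Calb1 (calbindin), Pcp2, Itpr1 (the inositol trisphosphate receptor) and Rgs8, passed the adjusted p as lower in both SCA7 groups against WT mice, with median log2 fold changes of -0.46 with AAV-shSCR and -0.43 with AAV-shA4. Their summed level was 9683 to 10940 CPM in WT mice, 6733 to 7542 with AAV-shSCR and 6808 to 7962 with AAV-shA4. In bulk tissue, fewer PCs and less RNA per PC cannot be told apart. Relative to the mean of these markers on the log2 scale, Scn4b was at -2.37 ± 0.20 in WT mice (SD, n = 4), -2.52 ± 0.07 with AAV-shSCR and -2.26 ± 0.10 with AAV-shA4 (n = 5 each). The WT range of -2.56 to -2.10 overlapped that of AAV-shSCR-treated mice, and the SCA7 groups met at -2.41. It covered all AAV-shA4-treated mice only through WT replicate 1, a library that stood apart and the highest of the WT mice here. Without WT replicate 1, most AAV-shA4-treated mice lay above the WT mice. Medians over all mice were -2.41 in WT mice, -2.53 with AAV-shSCR and -2.25 with AAV-shA4. Between the SCA7 groups none of the 8 markers passed the edgeR adjusted p, and their log2 differences lay between -0.01 and 0.06. How far the markers' shift accounts for that of Scn4b was not tested.

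**Figure D3:**
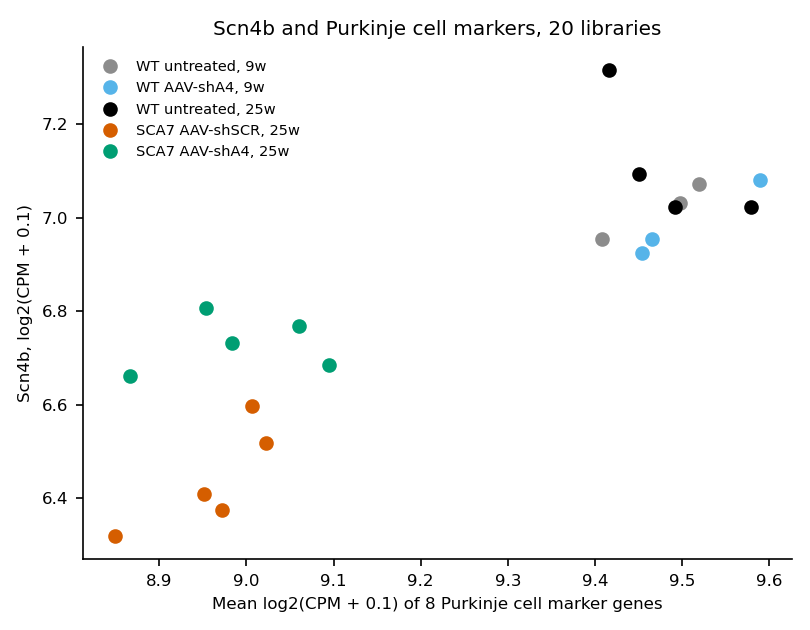
Scn4b, log2(CPM + 0.1), against the mean log2(CPM + 0.1) of 8 Purkinje cell marker genes in each of the 20 libraries, coloured by group. The 10 SCA7 libraries lie at marker means of 8.85 to 9.10, below the 10 WT libraries at 9.41 to 9.59, and within the SCA7 libraries those with AAV-shA4 lie higher in Scn4b.

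Scn2b, whose β2 subunit is linked covalently to the α subunit, was at 472.2, 475.2, 502.7 and 510.9 CPM in untreated WT mice. It was at 432.0, 454.1, 463.5, 430.1 and 444.4 CPM with AAV-shSCR and at 413.3, 424.1, 464.8, 424.0 and 429.0 CPM with AAV-shA4. Both SCA7 groups lay below all WT mice. The difference was small, with a log2 fold change of -0.14 with AAV-shSCR (SE 0.037, edgeR adjusted p = 0.0175) and -0.19 with AAV-shA4 (SE 0.037, edgeR adjusted p = 0.00290). With AAV-shSCR the adjusted p rose to 0.0561 without WT replicate 3 and to 0.0667 without WT replicate 4. The SCA7 groups overlapped (-0.05 between them, 95% interval -0.12 to 0.03, edgeR adjusted p = 0.758), so the value between the vectors was of the opposite sign to that of Scn4b, its neighbour on chromosome 9. Relative to the PC marker mean, Scn2b was higher in SCA7 mice (-0.16 ± 0.06 with AAV-shSCR and -0.24 ± 0.08 with AAV-shA4) than in WT mice (-0.55 ± 0.10), as it fell less than these markers did.

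Scn3b encodes the β3 subunit, which is most abundant early in development. It was at 8.81, 3.66, 4.22 and 3.82 CPM in untreated WT mice at 25w, at 4.22, 4.59, 4.84, 4.06 and 4.59 CPM with AAV-shSCR, and at 10.97, 3.99, 5.57, 4.95 and 4.76 CPM with AAV-shA4. The high value of each group was in replicate 1, the library that stood apart in markers of cerebellar nuclei and brainstem neurons. In that list the level of Slc17a6, a glutamate transporter of these neurons, was 80.2 and 74.5 CPM in these libraries and 14.45 to 36.94 CPM in the others, whereas Spp1, its other abundant gene, was at 42.7 and 32.4 CPM and within 26.8 to 39.8 CPM elsewhere. Of the markers that define the brainstem and spinal cord, Chat, Isl1, Hoxb3, Hoxb5 and Hoxb8 were at most 0.227 CPM in each late library, where Hoxb3 was the highest, and Hoxb3 reached 0.708 CPM at 9w. Scn3b did not pass the test in any comparison. Its log2 fold change with AAV-shSCR was -0.21 (SE 0.28, 95% interval -0.81 to 0.38) with all libraries and 0.19 (SE 0.11) without the replicates named, and with AAV-shA4 it was 0.23 (SE 0.28) and 0.30 (SE 0.12).

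**Figure D4:**
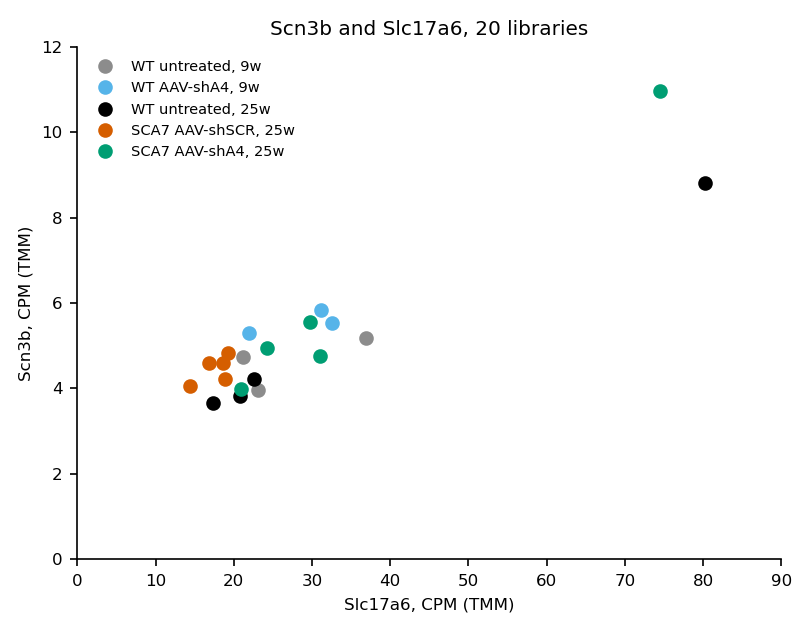
Scn3b against Slc17a6 (both CPM with TMM scaling, axes from 0) in each of the 20 libraries, coloured by group. Replicate 1 of untreated WT mice at 25w (80.2 and 8.81 CPM) and replicate 1 of AAV-shA4-treated SCA7 mice (74.5 and 10.97 CPM) lie apart from the other 18 libraries.

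Scn8a, the α subunit of the axon initial segment of mature neurons, was at 406.9 to 418.1 CPM in WT mice at 25w (413.0 ± 4.62, SD, n = 4). It was at 401.2 ± 7.20 CPM with AAV-shSCR and 401.6 ± 11.9 CPM with AAV-shA4 (n = 5 each). Its log2 fold changes against WT mice were -0.04 in both groups (95% intervals -0.10 to 0.01 and -0.10 to 0.02, edgeR adjusted p = 0.326 and 0.358), and as folds both intervals ran from 0.935 to 1.01. Scn2a, found on axons of granule cells and many other neurons, had 415.6 ± 30.5 CPM in WT mice, 437.1 ± 16.8 with AAV-shSCR and 427.1 ± 19.2 with AAV-shA4. The log2 fold changes were 0.07 and 0.04 (95% intervals -0.03 to 0.17 and -0.06 to 0.14, edgeR adjusted p = 0.322 and 0.647). Scn1a, an α subunit of inhibitory neurons including PCs, had 254.3 ± 16.8 CPM in WT mice, 244.7 ± 9.86 with AAV-shSCR and 257.1 ± 18.9 with AAV-shA4. The log2 fold changes were -0.06 and 0.02 (95% intervals -0.17 to 0.06 and -0.10 to 0.13, edgeR adjusted p = 0.530 and 0.888). For these 3 genes the groups overlapped in each late comparison, and the SCA7 groups differed from each other by 0.07 or less on the log2 scale (edgeR adjusted p of 0.722 to 0.996).

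Scn11a encodes an α subunit best known from nociceptive sensory neurons. Only 2 to 44 reads per library fell on it, and the following CPM values rest on such counts. WT mice at 25w had 11, 7, 8 and 2 reads (0.157 ± 0.0712 CPM, SD, n = 4). AAV-shSCR-treated SCA7 mice had 16, 19, 44, 13 and 16 reads (0.578 ± 0.287 CPM) and AAV-shA4-treated ones 11, 21, 16, 7 and 17 reads (0.377 ± 0.139 CPM, n = 5 each). In CPM all SCA7 mice lay above all WT mice, and the SCA7 groups overlapped. The level was 3.59-fold higher with AAV-shSCR (log2 fold change 1.84, SE 0.42, edgeR adjusted p = 0.00583) and 2.33-fold higher with AAV-shA4 (1.22, SE 0.43, edgeR adjusted p = 0.0759), which did not pass. These tests are limited in that the gene entered the fit only through the SCA7 libraries, where it is high, and without any filter on low counts the values were 1.84 (edgeR adjusted p = 0.00532) and 1.22 (edgeR adjusted p = 0.0789). Without AAV-shSCR replicate 3, the library with 44 reads, the filtered fit gave 1.48 with AAV-shSCR (edgeR adjusted p = 0.0156), and the edgeR adjusted p with AAV-shA4 became 0.0394. The late groups were fitted together, so that leaving out a library of 1 group can change the test of another. Which step of the fit changed it was not tested. Over a list of 7 markers of sensory ganglion neurons, summed levels were 3.58 to 4.73 CPM in WT mice, 2.72 to 3.93 with AAV-shSCR and 2.73 to 3.76 with AAV-shA4. Of 3 markers with enough reads, Avil, the most abundant, was called as lower, from 2.63 CPM in WT mice at 25w to 1.28 with AAV-shSCR (-1.03, edgeR adjusted p = 0.00199) and 1.42 with AAV-shA4 (-0.88, edgeR adjusted p = 0.00686). In WT mice at 9w, Avil was at 1.45 CPM untreated and 1.31 CPM with AAV-shA4, near the levels of the SCA7 groups. Calca (0.18 and 0.32) and P2rx3 (0.29 and 0.30) had values of the opposite sign that did not pass, so that the lower sums rest on Avil. Trpv1 and Mrgprd, which mark nociceptors, were at group means of at most 0.156 CPM.

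Fgf14 was at 69.8, 72.3, 69.5 and 68.98 CPM in untreated WT mice at 25w. It was at 79.3, 84.6, 71.8, 86.5 and 79.2 CPM with AAV-shSCR and at 67.0, 71.9, 84.2, 80.0 and 83.8 CPM with AAV-shA4. Above all WT mice lay 4 of 5 AAV-shSCR-treated and 3 of 5 AAV-shA4-treated mice, so that both groups overlapped the WT mice. The log2 fold change with AAV-shSCR was 0.19 (SE 0.064, edgeR adjusted p = 0.0481), and with AAV-shA4 it was 0.14 (SE 0.064, edgeR adjusted p = 0.167). The first value sat at the limit: its adjusted p was above 0.05, at 0.0560 to 0.120, in 9 of 14 fits that left out 1 library, namely any WT mouse, any AAV-shSCR-treated mouse except replicate 3, or AAV-shA4 replicate 4. The second passed without AAV-shA4 replicate 1 (0.19, edgeR adjusted p = 0.0334).

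**Figure D5:**
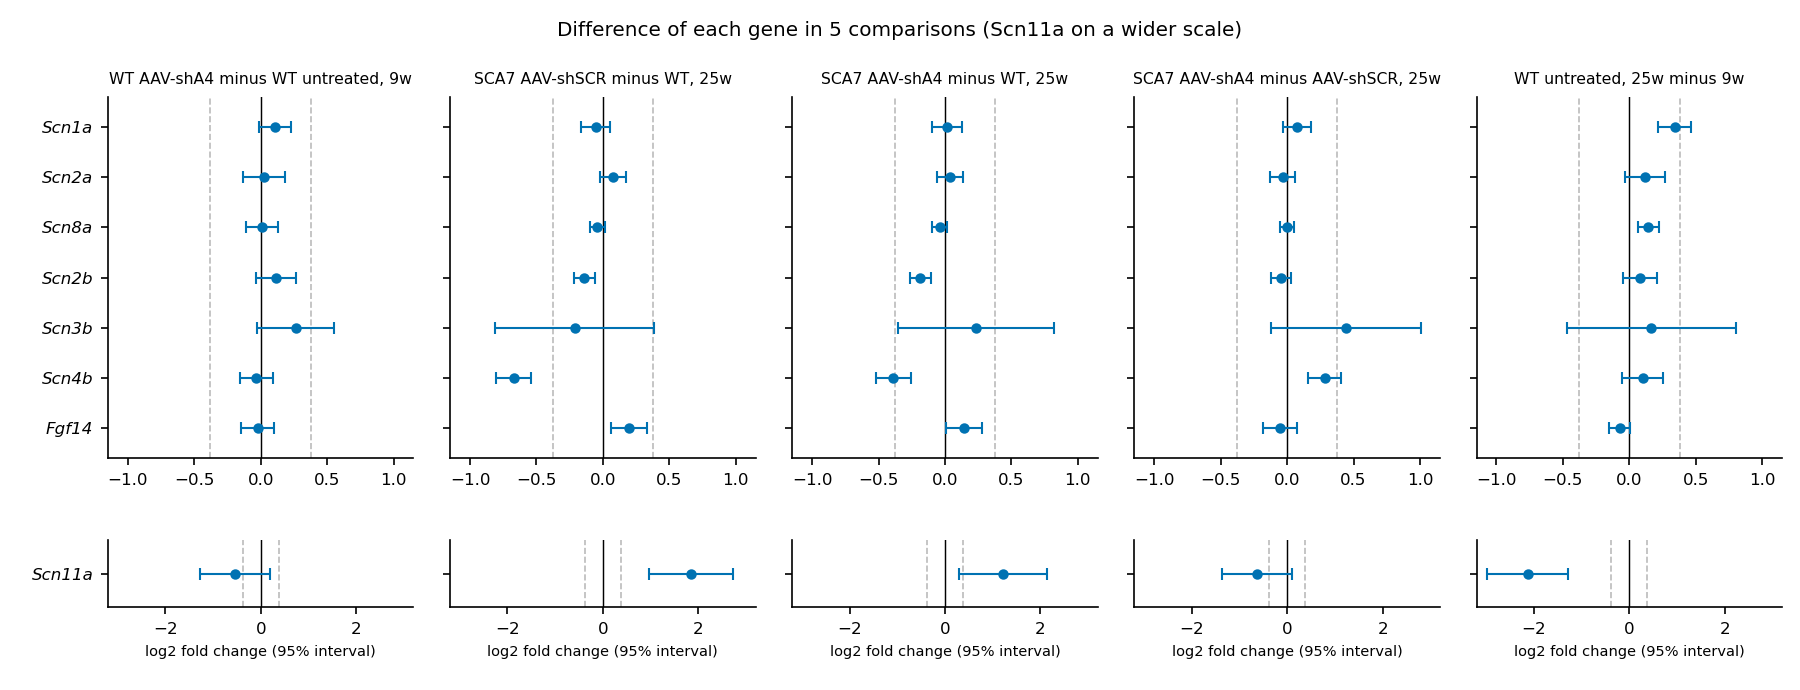
Log2 fold change of each gene with its 95% interval from the edgeR fit, in 5 comparisons (columns), with Scn11a on a wider scale below. Dashed lines mark a fold of 1.3 in either direction. Scn4b lies at -0.67 and -0.39 in the SCA7 groups against WT mice and at 0.28 between them, and the intervals of Scn1a, Scn2a and Scn8a include 0 in the 3 late comparisons.

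The early libraries asked whether AAV-shA4 changes these genes in WT mice. No WT mice given AAV-shSCR were among the libraries, so that the vector and its shRNA cannot be told apart here. No member passed the test by edgeR, and none had an unadjusted p under 0.05. Of all 14733 genes, 0.0679% passed the adjusted p and 0.0543% were called. Scn4b was at 135.2, 123.9 and 121.4 CPM with AAV-shA4 and at 130.8, 124.0 and 134.4 CPM in untreated mice, a log2 fold change of -0.04 (95% interval -0.16 to 0.09, edgeR adjusted p = 0.846). For Scn1a, Scn2a, Scn8a, Scn2b and Fgf14 the log2 fold changes lay between -0.02 and 0.11, and no interval reached 1.3-fold. Those of Scn3b (0.26, 95% interval -0.03 to 0.55) and Scn11a (-0.54, 95% interval -1.28 to 0.19) were wider and included changes of that size. Only Scn3b had non-overlapping groups (5.54, 5.29 and 5.84 against 3.96, 5.18 and 4.72 CPM), as 16% of all genes did, and an exact permutation test of 3 against 3 mice cannot go below p = 0.1. DESeq2 called 53 genes and no member.

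Untreated WT mice were also compared between 25w and 9w, where time and any difference in the preparation of the early and late libraries cannot be told apart. By edgeR, 3 of 8 members passed the adjusted p, where 23% of 14875 genes did, and 1 was called (Scn11a), where 5.14% were. Groups did not overlap for the same 3 members, as for 33.8% of all genes. Scn1a rose from 206.8, 207.0 and 188.8 CPM at 9w to 276.5, 248.8, 255.6 and 236.4 CPM at 25w (log2 fold change 0.34, SE 0.056, edgeR adjusted p = 0.00282). Scn8a rose from 374.1 ± 14.4 CPM (n = 3) to 413.0 ± 4.62 CPM (n = 4, log2 fold change 0.14, SE 0.036, edgeR adjusted p = 0.0186), within 1.3-fold, and missed the adjusted p without 9w replicate 1 (adjusted p = 0.0630), 9w replicate 3 (0.0567) or 25w replicate 3 (0.0524). Scn11a fell from 38, 38 and 24 reads (0.715 ± 0.186 CPM) to the 11, 7, 8 and 2 reads given above (log2 fold change -2.13, SE 0.38, edgeR adjusted p = 0.00411). It passed the filter on low reads through the 9w libraries. The mean levels of both SCA7 groups at 25w lay between those of the WT groups. Scn4b, Scn2a, Scn2b, Scn3b and Fgf14 did not pass (log2 fold changes of -0.07 to 0.17).

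Of the other genes of the family, Scn3a, Scn7a and Scn9a could be tested and did not pass in any late comparison, and Scn7a was called as higher at 25w than at 9w (1.18, edgeR adjusted p = 0.00837). Scn3a was at 7.07 and 8.57 CPM in the replicates 1 that stood apart and at 1.67 to 3.56 CPM in the other late libraries, as Scn3b was. Scn4a and Scn10a had too few reads to be tested. Among the other FGF homologous factors, Fgf11 was called as lower in both SCA7 groups, from 73.7 ± 4.14 CPM in WT mice to 51.1 ± 3.12 with AAV-shSCR (-0.53, edgeR adjusted p = 5.03e-06) and 51.4 ± 3.57 with AAV-shA4 (-0.52, edgeR adjusted p = 5.93e-06). Fgf12 and Fgf13 did not pass.

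Genes that anchor sodium channels at the axon initial segment and node shifted little. Of 8 such genes, 3 passed the adjusted p with AAV-shSCR (2 lower, 1 higher) and 4 with AAV-shA4 (3 lower, 1 higher), both against WT mice, and none was called. Their median log2 fold changes were -0.06 and -0.07. The adhesion molecule Nfasc was lower in both (-0.10 in each), whereas Nrcam passed with AAV-shSCR (-0.15, edgeR adjusted p = 0.00836), and the spectrin Sptbn4 (-0.17, edgeR adjusted p = 0.0122) and the paranodal Cntnap1 (-0.12, edgeR adjusted p = 0.0368) passed with AAV-shA4. Whether the groups differ for these 3 genes was asked by their comparison with each other, where none passed. Cntn1 was higher in both (0.09 and 0.11), and Ank3 did not pass (-0.03 and -0.07). Of 8 oligodendrocyte markers, which mark the myelin that borders the nodes, 7 were lower and 1 higher with AAV-shSCR. With AAV-shA4, 5 were lower and 3 higher. In each group 4 passed the adjusted p, all as lower, where 15.5% and 13.6% of all genes passed. Of these markers 2 were called in each group, where 4.02% and 3.45% of all genes were. The lowest log2 fold changes among them were -0.68 with AAV-shSCR and -0.65 with AAV-shA4.

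The genes whose pattern over the 14 late libraries was most like that of a member were named by the smallest root mean square difference of centred log2(CPM + 0.1). For Scn4b, with a spread of 0.29 (SD of log2 values), these were Htr1b, a serotonin receptor (0.10), Nell1 (0.11) and Ripor2 (0.11). For Scn2b (spread 0.09) they were Atg2b, Mapre2 and Gnaq, at 0.04 each. The genes nearest to Scn3b (spread 0.45) were Klhl1 (0.14), Pcdh7 (0.14) and Sox11 (0.15), and those nearest to Fgf14 (spread 0.13) included Zfp318 and Eml6 (0.06 each). For Scn1a, Scn2a and Scn8a (spreads of 0.09, 0.08 and 0.03) the nearest genes were March5, Sphkap and Ggnbp2, at differences of 0.04, 0.03 and 0.02. For Scn11a, whose values rest on few reads, the nearest genes Gm19410, Serpinb2 and Ly9 still differed by 0.34 to 0.39.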

How the data were processed

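Stranded poly(A) RNA-seq libraries were sequenced as single reads of 50 bases. According to the methods and the submitters' processing notes, the authors trimmed reads with cutadapt 1.10, removed rRNA reads with Bowtie2 2.2.8, mapped to mm10 (GRCm38) with STAR 2.5.3a and counted with HTSeq 0.6.1p1 on Ensembl release 102. The deposited values are raw read counts per gene. All 20 columns were matched to samples by title, and groups come from the labels. Each replicate is a separate cerebellum.

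Genes were annotated with GENCODE M21 (55141 of 55401 matched), and 21897 protein-coding genes entered edgeR 4.0.16 (R 4.3.3, limma 3.58.1) with TMM scaling, filterByExpr (minimum count 10, total 15) and quasi-likelihood tests. The 14 late libraries were fitted together, the 6 early ones and the 7 untreated WT ones each on their own. Printed CPM values use TMM factors over all 20 libraries. Intervals follow from the log2 fold change and its SE. Permutation tests used log2(CPM + 0.1). Levels per kb divide by the median transcript length. Tested on simulated late libraries, the calls recovered 87% of genes with a log2 change of 1 and 71% of those with 0.5, beside 4 false calls. In 32 pairs of replicates, counts differed by more than sampling noise (lowest chi-squared value 4.867 and highest 26.13, each divided by its degrees of freedom).

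The genes named are the members, the fixed lists of the remaining family, FGF homologous factors, anchoring genes and cell type markers, the 3 genes nearest in pattern to each member, Atxn7, and overlapping genes. Some genes of these lists are not reported here. The members and lists were chosen with earlier results of these data known. Alternatives were DESeq2 1.42.0 (size factors or Wald test), no filter on low counts, robust estimation, a replicate block, fits of only the groups compared, and leaving out each library in turn. Replicate numbers were not taken to pair mice.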

Additional observations from a re-analysis of the deposited data

Results flagged for a closer look

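In 24 combinations of a member and a group with at least 4 mice, 4 held a mouse far from the others by Dixon's criterion, which chance meets in about 1 in 20 groups. For Scn3b, AAV-shA4-treated SCA7 replicate 1 was at 10.97 CPM with the nearest mouse at 5.57 CPM, and untreated WT replicate 1 of 25w was at 8.81 CPM with the nearest at 4.22 CPM. Both are the libraries with high Slc17a6. For Scn11a, AAV-shSCR-treated SCA7 replicate 3 was at 1.08 CPM (44 reads) with the nearest at 0.538 CPM, and untreated WT replicate 4 of 25w was at 0.0516 CPM (2 reads) with the nearest at 0.186 CPM.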

How the results depend on the processing

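The number of genes called in the early comparison was the least stable, with 8 against 26 without a filter on low counts, 19 with robust estimation, 53 with the DESeq2 Wald test and 37 with a replicate block, and 1 to 43 when 1 library was left out (1 without AAV-shA4 replicate 2, 43 without AAV-shA4 replicate 3, 4 without untreated replicate 2 and 2 without untreated replicate 3). No member passed there under any of these. Between the SCA7 groups 0 genes were called, against 4 with the DESeq2 Wald test and 1 without both libraries that stood apart, a setting chosen after seeing the data. The cause was not tested.

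Values near 0 changed sign. With the replicate block, Scn1a in AAV-shA4-treated SCA7 against WT mice went from 0.02 to -0.0029, and without both libraries Scn3b in AAV-shSCR-treated SCA7 against WT mice went from -0.21 to 0.19. Leaving out 1 library gave, in the early comparison, -0.040 to 0.074 for Scn2a, -0.012 to 0.050 for Scn8a and -0.058 to 0.030 for Fgf14. It gave -0.34 to 0.19 for Scn3b with AAV-shSCR against WT mice, and with AAV-shA4 against WT mice -0.11 to 0.64 for Scn3b, -0.019 to 0.059 for Scn1a and -0.0025 to 0.073 for Scn2a. Between the SCA7 groups it gave -0.011 to 0.011 for Scn8a, and between WT times -0.24 to 0.30 for Scn3b. None of these passed the test. With the longest transcript, levels per kb in untreated WT mice at 25w were 19.4 CPM for Fgf14, 30.3 for Scn1a, 46.5 for Scn2a, 105.3 for Scn2b, 1.24 for Scn3b and 36.1 for Scn8a.

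Same-numbered mice did not deviate together early (correlations of -0.082 to 0.091) or between WT times (-0.15 to 0.031). In the late libraries such pairs ran from -0.23 to 0.49, with 3 of 13 over 0.1, against 10 of 52 among pairs of unlike number. The late medians were 0.013 and -0.0040. The value of 0.49 was that of the replicates 1 that stood apart, in AAV-shA4-treated SCA7 and untreated WT mice. The replicate block called 37 genes early, 563 and 488 in the SCA7 groups against WT mice, 0 between the SCA7 groups and 525 between WT times. Among members it moved Scn11a with AAV-shA4 past the threshold (edgeR adjusted p = 0.049), and Fgf14 with AAV-shSCR (0.0926) and Scn8a between WT times (0.0844) back across it. Fgf14 with AAV-shSCR also missed the threshold without a filter (0.0526) and with robust estimation (0.0524). Depth limits Scn11a most, at 2 to 44 reads per library.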
